A study of Mus musculus with 9 samples.

Results

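The genes described here are 33 mouse genes that encode the collagens, laminins and linking proteins of basement membranes, followed by symbol among the 38924 genes of the count table. All 33 were matched to a gene in the table. They were grouped by role into 6 collagen IV chains, 2 multiplexin collagens, 5 laminin alpha chains, 5 laminin beta and gamma chains, 4 nidogens and proteoglycans, 5 genes of the FRAS1-FREM complex with nephronectin and hemicentin, and 6 other basement membrane proteins.

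Transcripts were measured by RNA sequencing in primary cardiac fibroblasts from adult mice, 8 to 10 weeks old, on a C57BL/6 background with a Cas9 and green fluorescent protein transgene, so that guide RNAs alone direct cutting. All groups carried this transgene, were cultured for 3 days, were sorted as CD45-CD31-CD90+ cells and were grown for 6 more days before transfection. Control cells received scrambled guides, Gata4 KD cells received guides against Gata4 and Tbx20 KD cells guides against Tbx20, with 3 libraries per group (replicates a, b and c). The study describes the replicates as biological, and the labels name no animal, pool or batch, so p-values measure the spread between these libraries. Transfected cells were not selected, so each library averages cells that did and did not take up guides. In bulk RNA, fewer cells of a type and less RNA per cell cannot be told apart.

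Basement membranes are thin sheets of matrix in which a laminin network, joined from 1 alpha, 1 beta and 1 gamma chain per molecule, is anchored to cells, and a collagen IV network of triple helices gives tensile strength. Nidogens and the heparan sulfate proteoglycan perlecan link both networks. In the heart, each cardiomyocyte and capillary is wrapped in such a sheet, and interstitial fibroblasts are among the cells known to secrete its parts.

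Library totals lay between 31214828 and 41950397 counts. Gata4 was at 46.7 to 65.5 CPM (counts scaled to library size, with TMM factors over all 9 libraries) in Gata4 KD against 155 to 167 CPM in control, and fell (-1.55 on the log2 scale, SE 0.12, adjusted p 0.00272, edgeR quasi-likelihood test). Tbx20 was at 320 to 428 CPM in Tbx20 KD against 720 to 1276 CPM in control, a difference of -1.35 on the log2 scale (SE 0.21) that did not pass the test (adjusted p 0.748). In Gata4 KD Tbx20 was at 513 to 909 CPM and overlapped control (-0.52, SE 0.24, adjusted p 0.636). Gata4 in Tbx20 KD, at 178 to 198 CPM, lay above every control library without passing (0.23, SE 0.07, adjusted p 0.9997). The 8 fibroblast markers summed to 11496 to 12285 CPM in control, 8902 to 11467 CPM in Gata4 KD and 11100 to 12880 CPM in Tbx20 KD. Most of this sum was Col1a1, Col1a2 and Vim (means of 4006, 3867 and 2754 CPM in control). In Gata4 KD against control Col1a1, Vim and Tcf21 were lower without overlap (-0.35, -0.20 and -0.61 on the log2 scale). Estimates were above 0 for Pdgfra (0.37) and Ddr2 (0.06) and below 0 for Col1a2, Dcn and Thy1. None of the 8 passed. Of the other lists, the 9 epicardial and mesothelial markers summed to 27.3 to 51.2 CPM in control and 10.2 to 18.1 CPM in Gata4 KD (28.7 to 45.6 CPM in Tbx20 KD), with Msln and Krt8 under 1 CPM in every library. Most of that difference was 1 gene, Lrrn4 (adjusted p 0.00272, edgeR quasi-likelihood test). It was at 15.7 to 32.5 CPM in control and 2.09 to 2.74 CPM in Gata4 KD. Upk3b, Upk1b and Gpm6a were also lower in Gata4 KD without overlap (-1.51, -1.16 and -1.84 on the log2 scale). The estimate of Krt18 was -0.64, with overlap, and those of Krt19 and Wt1 were above 0 (0.35 and 0.13). Apart from Lrrn4 none of these passed. The 8 cardiomyocyte markers summed to 24.4 to 31.3 CPM, 8.73 to 9.83 CPM and 21.8 to 27.0 CPM in the same order of groups, with 6 of 8, Myh6 and Myh7 among them, under 1 CPM in every library and Nppa at 0. Nearly all of this sum was Tnnt2, at 23.3 to 30.2 CPM in control and 7.65 to 8.88 CPM in Gata4 KD (-1.64 on the log2 scale, SE 0.13, adjusted p 0.00272). The sums of 10 endothelial markers (46.2 to 65.1 CPM and 46.5 to 65.3 CPM) and 8 mural markers (87.6 to 95.0 CPM and 77.4 to 99 CPM) overlapped between control and Gata4 KD, as did those of 6 leukocyte markers (36.3 to 42.9 CPM and 21.4 to 37.8 CPM) and 6 Schwann markers (5.0 to 7.47 CPM and 4.03 to 7.69 CPM, with Foxd3 at 0). Of the endothelial markers, Kdr was higher without overlap, at 2.29 to 3.47 CPM in control and 5.06 to 6.19 CPM in Gata4 KD. Of the mural markers, Rgs5 was higher likewise, at 1.90 to 3.41 CPM and 4.02 to 6.34 CPM. Csf1r and Cd52 of the leukocyte markers were lower without overlap (-0.64 and -0.74 on the log2 scale). None of these passed against control, and the other tested markers of these lists overlapped. The part of any marker list in the results below was not tested.

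The sequences shown are those upstream of the member that changed most clearly, Npnt, and of Col4a6 and Col4a4, as examples from 2 of the 3 head-to-head pairs that the collagen IV genes form. Each is given 5′ to 3′ in the direction of the named gene, from RefSeq on build GRCm38.p6, ending at the base before the start of transcription. Capitals mark a GATA motif, searched on both strands as AGATAA and its variants ending in G (AGATAG) or starting with T (TGATAA and, with both changes, TGATAG).
Npnt, chr3:132950292-132950541, minus strand: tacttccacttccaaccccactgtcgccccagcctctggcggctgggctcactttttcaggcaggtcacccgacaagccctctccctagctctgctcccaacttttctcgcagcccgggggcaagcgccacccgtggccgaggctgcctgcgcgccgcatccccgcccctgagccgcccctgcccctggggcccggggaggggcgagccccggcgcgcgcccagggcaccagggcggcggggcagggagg
Col4a6, chrX:141474077-141474326, minus strand: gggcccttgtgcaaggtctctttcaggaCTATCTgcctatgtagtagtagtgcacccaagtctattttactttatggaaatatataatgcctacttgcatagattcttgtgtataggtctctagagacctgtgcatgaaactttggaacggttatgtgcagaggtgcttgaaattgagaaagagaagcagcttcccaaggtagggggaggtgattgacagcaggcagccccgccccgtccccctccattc
Col4a4, chr1:82586850-82586920, minus strand: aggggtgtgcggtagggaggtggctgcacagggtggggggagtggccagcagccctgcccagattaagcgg

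The Npnt stretch had a GC content of 74.0% and that of Col4a6 47.6%. The Col4a4 stretch is the whole 71 bases between the starts of Col4a4 and Col4a3, which are read in opposite directions. Col4a6 and Col4a5 start 1308 bases apart on chromosome X, of which the 250 next to Col4a6 are shown, and the annotated 5′ ends of Col4a1 and Col4a2 on chromosome 8 overlap by 22 bases. RefSeq windows of 300 bases (250 before and 50 after the start) were found for 23 of the 33 genes, with 30 windows in all. A GATA motif stood in 3 of these 30 windows (10.0%), those of Col4a6 and both windows of Tinagl1, against 29.8% of 32851 windows over all genes. The T-box motif AGGTGTGA, searched on both strands, stood in none of the 30 windows and in 1.28% of all windows. Each of these is a match of letters only.

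The first question was how much of each gene these fibroblasts express. Together the 33 genes held 0.894 to 0.933% of all counts in control. Their summed level was 9125 ± 247 CPM in control (SD, n = 3), 8922 ± 614 CPM in Gata4 KD and 8792 ± 595 CPM in Tbx20 KD, so the groups differed by less than the spread between libraries of either knockdown. Col4a1 alone held 26.1% of that sum in control and the 8 largest members together 90.8%.

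Per length of exon, Col4a1 stood highest in control, at 319 ± 9.69 CPM per kilobase (SD, n = 3), followed by Nid1 (205 ± 3.59) and Col4a2 (202 ± 10.4), whose control libraries overlapped each other but not those of Col4a1. Col4a1 and Col4a2 encode the chains that form the common collagen IV trimer. Nid1 encodes nidogen 1, the linker between laminin and collagen IV. Next came the laminin chains Lamc1 (86.9 ± 4.93 CPM per kilobase) and Lamb1 (77.8 ± 3.64), which did not overlap, then Hspg2, which encodes perlecan (62.8 ± 9.28), and Col4a5 (50.9 ± 7.14), which did. Lama4 followed at 34.3 ± 3.00 CPM per kilobase. Tinagl1, Ntn4 and Agrn, at 21.8 to 23.1 CPM per kilobase, overlapped neighbour by neighbour, and Lamb2 and Npnt stood at 17.2 and 10.9. In all, 13 members were at 10 CPM per kilobase or more.

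**Figure D1:**
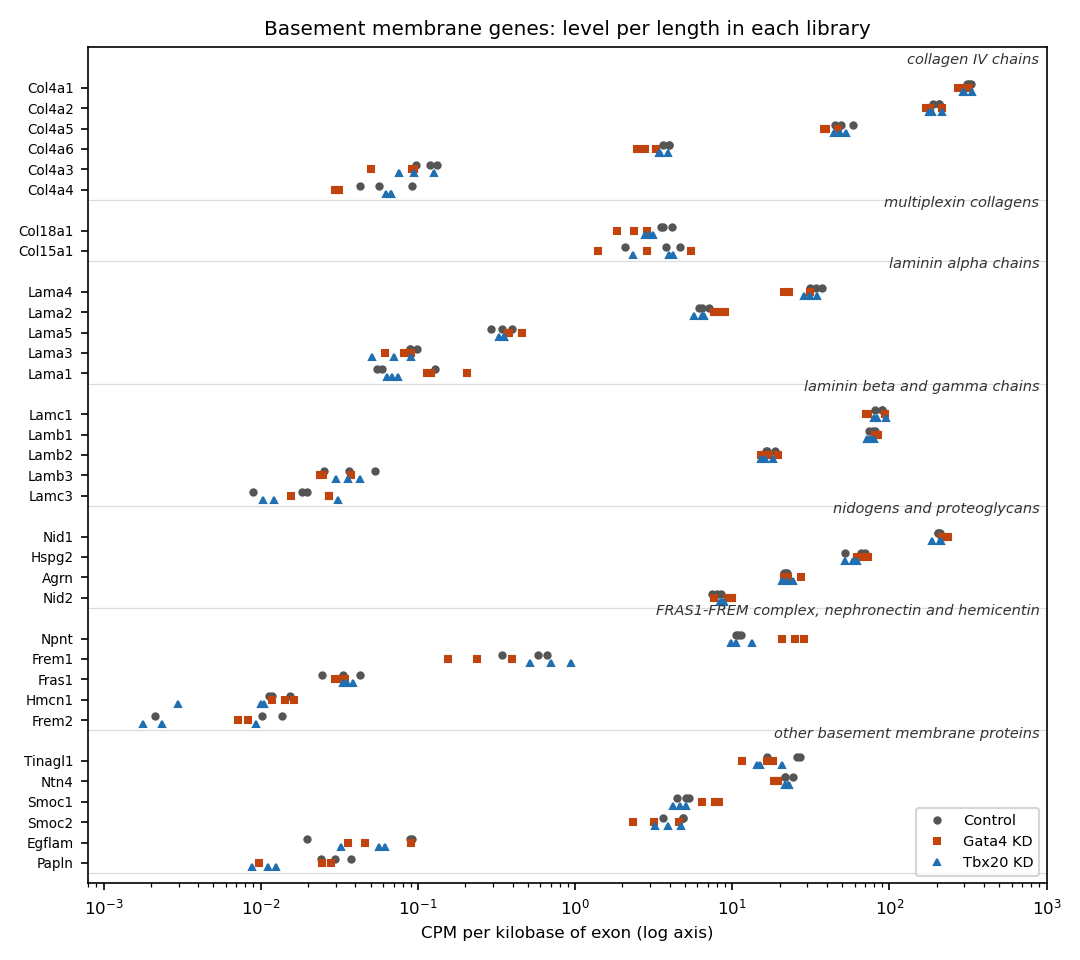
Level per length of the 33 genes, in CPM per kilobase of exon on a log axis, with each point 1 library (circles control, squares Gata4 KD, triangles Tbx20 KD) and genes grouped by role. Col4a1, Nid1 and Col4a2 lie near or above 200 CPM per kilobase in control while 13 genes lie under 1. A library of Gata4 KD with 0 counts of Frem2 cannot be drawn on this axis.

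At the low end, 13 members were under 1 CPM per kilobase in control, from Frem1 (0.528 ± 0.167) to Frem2 (0.00867 ± 0.00593). Frem2, a partner of Fras1 in the complex that fastens epithelia to the tissue beneath, had 0 counts in Gata4 KD replicate c, which allows up to 0.0830 CPM there (3 counts, counting error only). The filter on low counts removed Lamb3, Lamc3, Frem2 and Papln from every comparison and Hmcn1 from both comparisons with Tbx20 KD. That left 29 members tested in Gata4 KD against control and 28 in each of the others.

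The next comparison asked which members differed in Gata4 KD from control. Npnt rose 2.27-fold, and no other member passed the test. It was 1 of 29 members (3.45%), against 0.380% of all 14468 genes tested, of which 0.200% were called higher. The median log2 fold change over the members was -0.11, beside -0.02 over all genes.

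Npnt encodes nephronectin, a basement membrane ligand of integrin alpha 8 beta 1 that is best known from kidney development. It was at 56.8, 52.9 and 55.0 CPM in control replicates a, b and c, at 144, 125 and 104 CPM in Gata4 KD and at 66.9, 49.2 and 53.2 CPM in Tbx20 KD. Every Gata4 KD library was above all 6 others. In Gata4 KD against control the difference was 1.18 on the log2 scale (SE 0.12, adjusted p 0.00919, edgeR quasi-likelihood test). It stayed between 1.08 and 1.32 when any 1 library was left out, but the adjusted p of Npnt rose to 0.0511 without Gata4 KD replicate b and to 0.0910 without control replicate a. In Tbx20 KD against control the log2 fold change of Npnt was 0.05 (SE 0.11). Npnt (ENSMUSG00000040998) lies on chromosome 3 of GRCm38 from 132881745 to 132950291, on the minus strand.

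**Figure D2:**
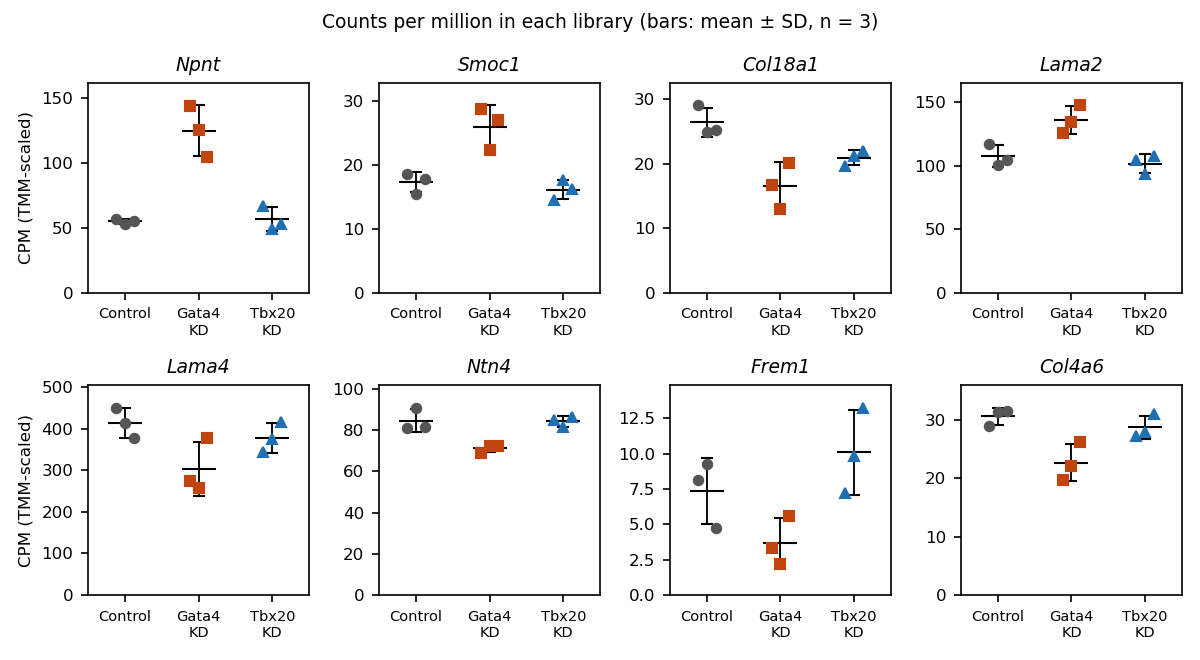
CPM of 8 basement membrane genes in each library (points) with the mean and SD (n = 3) per group, each panel on its own linear axis from 0. The Gata4 KD libraries lie above all others for Npnt, Smoc1 and Lama2 and below all others for Ntn4 and Col4a6.

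With Npnt included, 11 of the 29 members (37.9%) had an unadjusted p under 0.05 in Gata4 KD against control, where 8.54% of all genes did. Of these 3 were higher (3.90% of all genes) and 8 lower (4.64%). Groups did not overlap for 11 members (37.9%), beside 13.8% of all genes, with 5 higher (6.19% of all genes) and 6 lower (7.62%). Apart from Npnt none of these genes passed the adjusted threshold in edgeR's quasi-likelihood test, and the values below are given as estimates.

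Among the collagen IV chains all 6 estimates were below 0, with a median of -0.36 on the log2 scale, and none passed. Col4a1 was at 2377, 2457 and 2312 CPM in control, 2182, 2051 and 2398 CPM in Gata4 KD and 2192, 2233 and 2492 CPM in Tbx20 KD, with all groups overlapping. On the log2 scale its estimate in Gata4 KD against control was -0.11 (SE 0.09) and that of Col4a2 was -0.10 (SE 0.10). The minor chains had larger estimates. Col4a5, an X-linked chain that pairs with Col4a3 and Col4a4 or with Col4a6, had -0.29 (SE 0.12), and Col4a6 had -0.43 (SE 0.11, adjusted p 0.246), with 19.7 to 26.1 CPM in Gata4 KD below the 28.9 to 31.5 CPM of control.

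Col4a3 and Col4a4 encode chains of the glomerular basement membrane and were close to the limit of detection here. Col4a4 was at 0.599, 0.980 and 0.452 CPM in control, at 0.315, 0.330 and 0.332 CPM in Gata4 KD and at 0.662, 0.721 and 0.719 CPM in Tbx20 KD, or 10 to 35 counts per library. The Gata4 KD libraries were the lowest 3, and the log2 estimate was -1.05 (SE 0.37, adjusted p 0.444). Col4a3 was at 1.2, 1.32 and 0.964 CPM in control and at 0.504, 0.909 and 0.941 CPM in Gata4 KD, with -0.56 (SE 0.30). In Tbx20 KD Col4a3 was at 0.757, 1.25 and 0.942 CPM, across the range of both other groups.

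Col18a1, which encodes the multiplexin collagen that releases endostatin, was at 29.0, 24.9 and 25.3 CPM in control, at 16.7, 12.9 and 20.2 CPM in Gata4 KD and at 19.7, 21.2 and 22 CPM in Tbx20 KD. Both knockdowns lay below every control library. Its log2 estimate was -0.67 (SE 0.16, adjusted p 0.182) in Gata4 KD and -0.32 (SE 0.09, adjusted p 0.9997) in Tbx20 KD, where it was the 1 member with an unadjusted p under 0.05. In Gata4 KD against control it passed with DESeq2 (adjusted p 0.00986, the lowest of a range up to 0.680 over all alternatives). Both comparisons use the same control libraries. Col15a1, the other multiplexin, spread from 8.92 to 34.6 CPM within Gata4 KD and overlapped control.

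The laminin alpha chains decide which receptors a laminin binds. Lama4 encodes the alpha chain of vessel and interstitial basement membranes and Lama2 the alpha chain of muscle laminin, the gene lost in a congenital muscular dystrophy. Lama2 was at 117, 101 and 104 CPM in control, 126, 135 and 147 CPM in Gata4 KD and 104, 93.2 and 107 CPM in Tbx20 KD, so that all Gata4 KD libraries were above all others. Against control the Gata4 KD estimate was 0.34 (SE 0.09, adjusted p 0.268). Lama4 was at 451, 413 and 378 CPM in control, 275, 256 and 377 CPM in Gata4 KD and 344, 375 and 417 CPM in Tbx20 KD. Gata4 KD replicate c stood close to the lowest control library, and the log2 estimate for Lama4 was -0.45 (SE 0.15, adjusted p 0.391).

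As shares of the summed level of the 5 alpha chains per length, Lama4 held 82.9 ± 0.950% in control (SD, n = 3), 73.4 ± 2.94% in Gata4 KD and 82.3 ± 1.52% in Tbx20 KD, and Lama2 held 15.9 ± 0.828%, 24.7 ± 2.65% and 16.4 ± 1.46%. The ratio of Lama2 to Lama4 per length was 0.180 to 0.204 in control, 0.289 to 0.388 in Gata4 KD and 0.184 to 0.224 in Tbx20 KD. All Gata4 KD libraries lay above all others in this ratio. It was chosen after the values were seen and is given without a test. The shares of Lamb1 and Lamb2 among the beta chains, by contrast, were 81.9 ± 0.549% and 18.1 ± 0.542% in control and 82.7 ± 1.44% and 17.2 ± 1.43% in Gata4 KD.

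**Figure D3:**
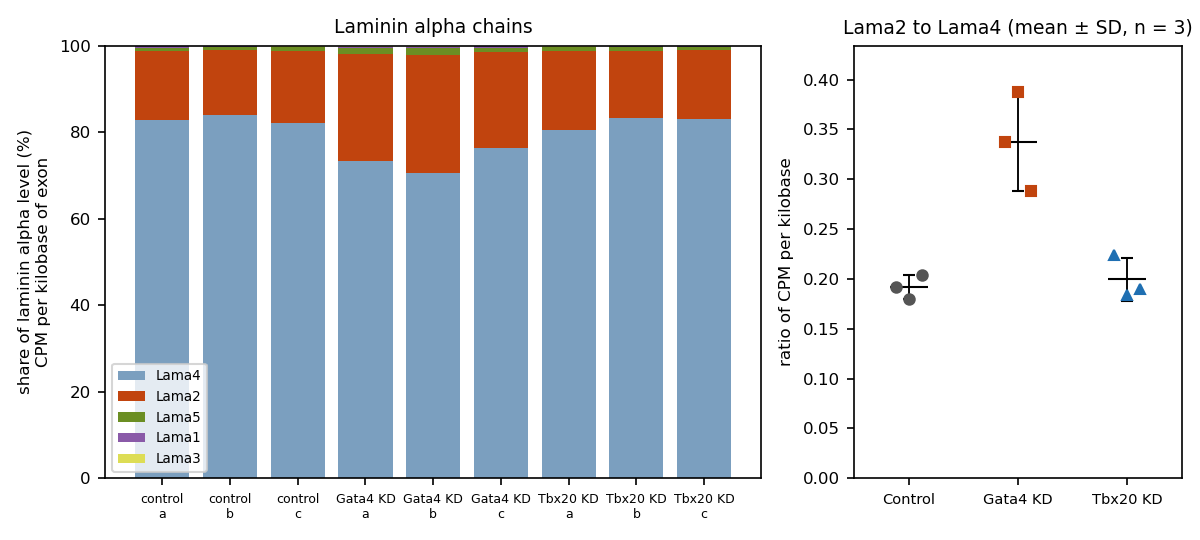
Left, share of each laminin alpha chain in the summed CPM per kilobase of the 5 chains, as stacked bars for each of the 9 libraries. Right, ratio of Lama2 to Lama4 per length in each library with mean and SD (n = 3); the Gata4 KD libraries, at 0.289 to 0.388, lie above the others, at 0.180 to 0.224.

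The remaining alpha chains were scarce. Lama1, the alpha chain of the early embryo, was at 1.25, 0.532 and 0.572 CPM in control, 1.17, 1.10 and 1.99 CPM in Gata4 KD and 0.615, 0.658 and 0.719 CPM in Tbx20 KD, or 19 to 72 counts per library. Control replicate a overlapped Gata4 KD, and the log2 estimate for Lama1 was 0.85 (SE 0.40, adjusted p 0.640). Lama5 and Lama3 overlapped between Gata4 KD and control.

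The core of the laminin molecule and its linkers moved little. Lamc1, the gamma chain of most laminins, was at 746, 739 and 672 CPM in control, 604, 590 and 771 CPM in Gata4 KD and 657, 691 and 786 CPM in Tbx20 KD, which overlap throughout. Its log2 estimate in Gata4 KD against control was -0.14 (SE 0.12), and those of Lamb1 and Lamb2 were 0.09 (SE 0.08) and 0.01 (SE 0.10). Nid1 was at 1451, 1406 and 1411 CPM in control, 1503, 1642 and 1500 CPM in Gata4 KD and 1460, 1303 and 1486 CPM in Tbx20 KD. The Gata4 KD libraries of Nid1 were the highest 3, with 0.12 on the log2 scale (SE 0.08, adjusted p 0.745). Nid2, Hspg2 and Agrn, which encodes the agrin proteoglycan, had estimates of 0.18, 0.10 and 0.12. None of these 7 genes had an unadjusted p under 0.05 in Gata4 KD against control.

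Among the proteins that tie epithelia to the stroma, Frem1 was at 8.11, 9.26 and 4.76 CPM in control, 3.31, 2.17 and 5.59 CPM in Gata4 KD and 7.19, 9.81 and 13.2 CPM in Tbx20 KD. Gata4 KD and control overlapped, and the log2 estimate for Frem1 was -1.0 (SE 0.35, adjusted p 0.451). Fras1 and Hmcn1, at -0.06 and 0.12 on the log2 scale, rested on at most 29 and 12 counts per library.

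Of the other proteins, Smoc1, which encodes a secreted calcium-binding protein known as an inhibitor of BMP signalling, was at 18.6, 15.5 and 17.8 CPM in control, 28.7, 22.3 and 27.0 CPM in Gata4 KD and 14.6, 17.7 and 16.2 CPM in Tbx20 KD. All Gata4 KD libraries were above all others. Against control it stood 0.59 higher on the log2 scale (SE 0.12, adjusted p 0.124), and it passed with DESeq2 (adjusted p 0.00210, the lowest of a range up to 0.487 over all alternatives). Its relative Smoc2 had -0.41 (SE 0.23). Ntn4, a laminin-related netrin that can disturb laminin assembly, was at 69.0 to 72.6 CPM in Gata4 KD, below the 81.1 to 91.0 CPM of control, with -0.25 (SE 0.08, adjusted p 0.382). Tinagl1, a matricellular protein of basement membranes, was at 112, 72.1 and 118 CPM in control, 72.4, 79.3 and 50.1 CPM in Gata4 KD and 90.1, 63.0 and 65.9 CPM in Tbx20 KD, and its groups overlapped. Egflam, which encodes pikachurin, had at most 20 counts in a library.

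The second knockdown was compared with the same controls. In Tbx20 KD against control none of 28 members passed edgeR's quasi-likelihood test, where 0.00687% of all 14547 genes (1 gene) did, and none passed with DESeq2 or limma-voom. Tbx20 itself, lower without overlap, did not pass that edgeR test either (unadjusted p 0.000154, adjusted p 0.748). The absence of calls therefore cannot show that the members were unaffected. An unadjusted p under 0.05 was reached by 1 of 28 members (3.57%), beside 2.69% over the whole table. Groups did not overlap for 1 member, Col18a1, beside 6.74% of all genes. The median log2 fold change over the members was -0.05, beside 0.00 over all genes. The most extreme estimates were 0.46 (SE 0.28) for Frem1 and -0.45 (SE 0.20) for Tinagl1. For the abundant members the estimates were close to 0 with narrow errors, at -0.04 (SE 0.08) for Col4a1, 0.00 (SE 0.08) for Nid1, -0.03 (SE 0.07) for Lamb1 and 0.00 (SE 0.09) for Lamc1.

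**Figure D4:**
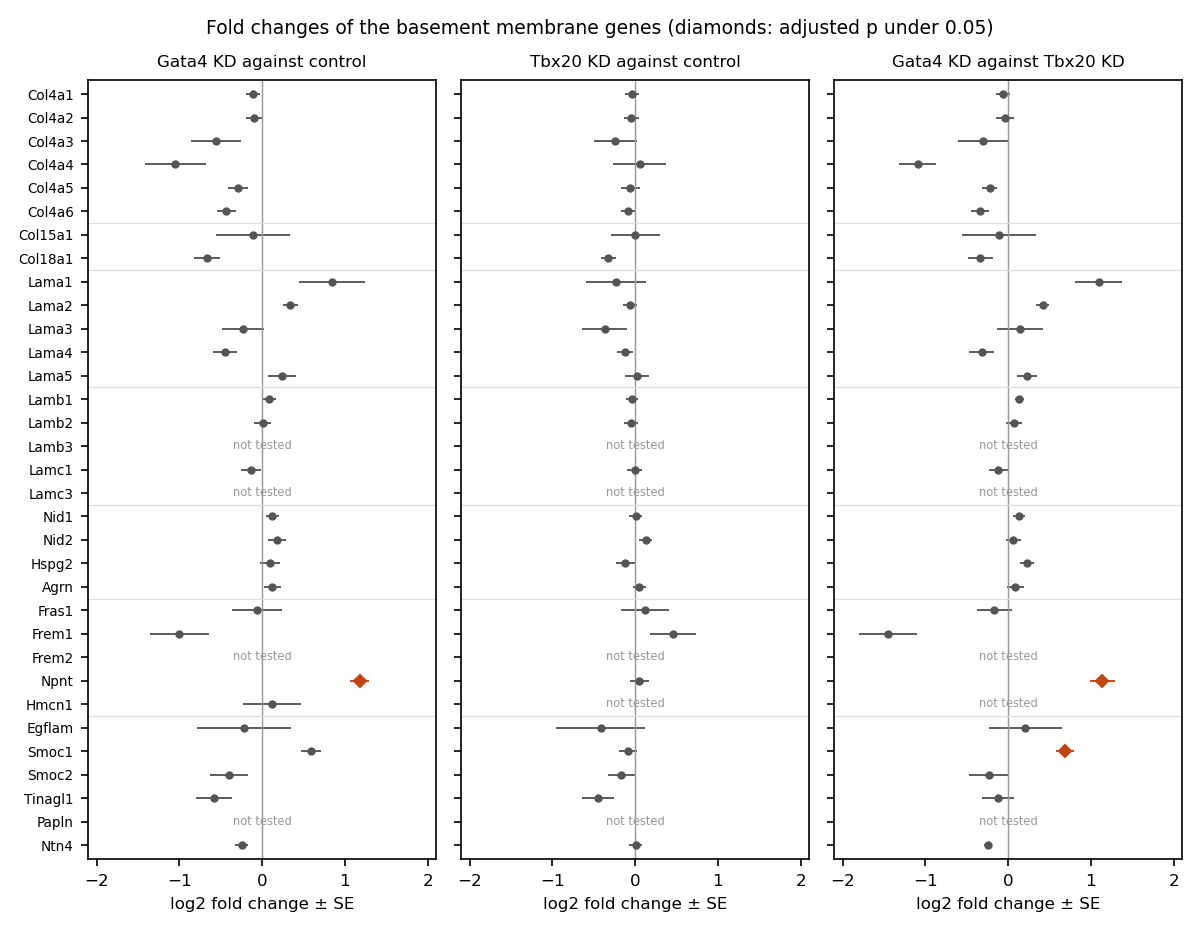
Log2 fold change with its standard error for the genes that passed the filter on low counts (29 in Gata4 KD against control and 28 in each of the other 2 comparisons), from edgeR's quasi-likelihood fit on 6 libraries each; positive values are higher in the group named first. Diamonds mark Npnt in both comparisons of Gata4 KD and Smoc1 in Gata4 KD against Tbx20 KD, the calls at an adjusted p under 0.05.

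The knockdowns were then compared with each other, which tests directly whether a member stood at different levels in them. Npnt and Smoc1 were higher in Gata4 KD than in Tbx20 KD. They were 2 of 28 members (7.14%), against 1.44% of all 14477 genes, 0.815% of which were called higher. Npnt differed 2.2-fold (1.14 on the log2 scale, SE 0.15, adjusted p 0.0188) and Smoc1 1.61-fold (0.69 on the log2 scale, SE 0.11, adjusted p 0.0392). The Npnt difference was lost in 4 of the 6 fits that left out a library, which were those without Gata4 KD replicate a (adjusted p 0.0859), without its replicate b (0.0748), and without replicates b (0.103) and c (0.119) of Tbx20 KD. That of Smoc1 was lost without Gata4 KD replicate a (0.159) and without each of replicates a (0.0912), b (0.125) and c (0.173) of Tbx20 KD. Without Gata4 KD replicate c the number of members called was 8, with Col18a1, Col4a6, Frem1, Lama2, Lama4 and Ntn4 beside Npnt and Smoc1, while over all genes the number rose from 208 to 801.

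In this comparison 11 of 28 members (39.3%) had an unadjusted p under 0.05, beside 16.7% of all genes, and the groups of 12 (42.9%) did not overlap, beside 23.0% of all genes. The median over the members was -0.05, beside -0.01 over all genes. Several members lay close to the adjusted threshold without passing it. Lama2 had 0.42 (SE 0.08, adjusted p 0.0527), Ntn4 -0.24 (SE 0.05, adjusted p 0.0588) and Col4a4 -1.09 (SE 0.22, adjusted p 0.0650). Frem1 had -1.45 (SE 0.35, adjusted p 0.104) and Lama1 1.10 (SE 0.28, adjusted p 0.116), with no overlap of the groups for either. With DESeq2, Frem1, Lama2 and Ntn4 passed beside Npnt and Smoc1.

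Chains that assemble together, and the nidogens Nid1 and Nid2, were also followed across the 9 libraries as 5 pairs of genes. Log2 CPM of Col4a1 and Col4a2 had a Pearson r of 0.963 (exact permutation p adjusted over the 5 pairs 0.000455) and a Spearman's rho of 0.967 (adjusted p 0.000827). For Col4a5 and Col4a6, r was 0.878 (exact permutation adjusted p 0.00408; rho 0.867, adjusted p 0.0113). Both held without the 2 libraries farthest from the median of the first gene, at r of 0.939 and 0.863, and on deviations from the group means, at 0.980 and 0.785. For Col4a3 and Col4a4, r was 0.631 (exact permutation adjusted p 0.10; rho 0.750, adjusted p 0.0425) and fell to 0.251 without the 2 farthest libraries. Lamb1 and Lamc1 had r of -0.01, and Nid1 and Nid2 0.01, with exact permutation adjusted p of 0.989 for each; r of Nid1 and Nid2 was 0.880 without the 2 farthest libraries. The libraries of a group share their treatment, and the genes of a pair share their library, its scaling and, for each collagen IV pair, their locus. No other pairs of genes were correlated. Whether such values are particular to these pairs was therefore not tested.

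**Figure D5:**
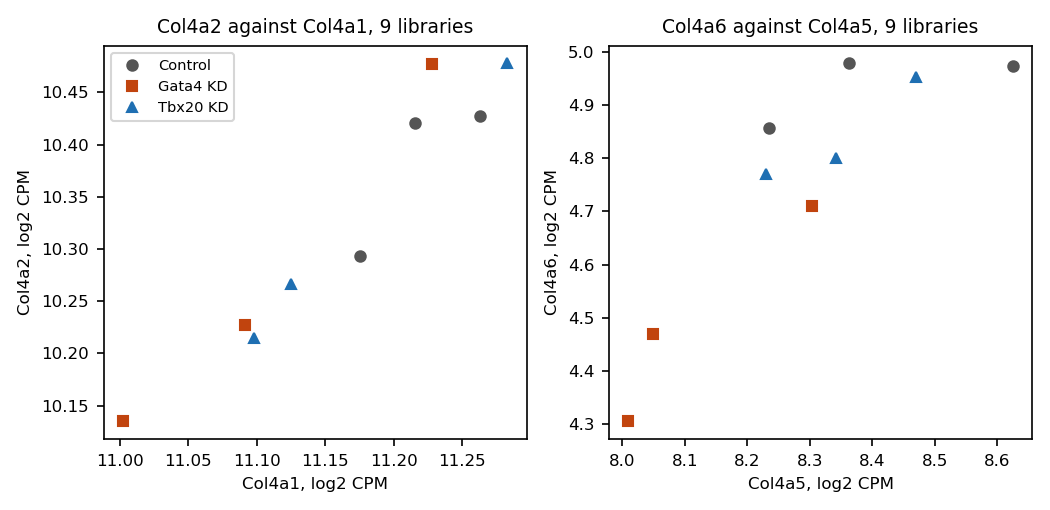
Log2 CPM of Col4a2 against Col4a1 (left) and of Col4a6 against Col4a5 (right), each point 1 of 9 libraries and each shape a group. Both pairs rise together (r 0.963 and 0.878), and within Gata4 KD as within Tbx20 KD 1 library stands above the other 2.

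The proportion of the main collagen IV chains overlapped between groups. Per length, Col4a1 stood at 1.58 ± 0.0477 times Col4a2 in control (SD, n = 3), 1.58 ± 0.0716 times in Gata4 KD and 1.60 ± 0.0442 times in Tbx20 KD. Col4a1 and Col4a2 held 55.5% and 35.0% of the summed collagen IV level per length in control, Col4a5 8.82% and Col4a6 0.667%. The share of Col4a6 was 0.536 ± 0.0481% in Gata4 KD, below the 0.667 ± 0.0426% of control, and that of the scarce Col4a4 was 0.00583 ± 0.000533% against 0.0110 ± 0.00396%, without overlap of the libraries for either.

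Around the members, 71 further genes of basement membrane biology were counted in 5 lists: other proteins of the basement membrane zone, receptors for laminin and collagen IV, enzymes that glycosylate dystroglycan, genes for collagen IV folding, secretion and crosslinking, and proteases with their regulators. In Gata4 KD against control none of the 66 tested passed edgeR's quasi-likelihood test (8 had an unadjusted p under 0.05, 12.1% beside 8.54% of all genes; 4 passed with DESeq2 and 0 with limma-voom). In Tbx20 KD against control none of 66 passed either (5 had an unadjusted p under 0.05, 7.58% beside 2.69%; 0 passed with DESeq2 or limma-voom). Between the knockdowns 1 of 66 passed (1.52%, beside 1.44% of all genes). At an unadjusted p under 0.05 there were 13 of them (19.7%, beside 16.7%). The medians of the 66 were -0.06, 0.01 and -0.04 in the 3 comparisons.

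The gene that passed was Ddr1, a receptor tyrosine kinase for collagens, among 14 receptor genes tested. It was at 176, 151 and 165 CPM in control, 123, 107 and 135 CPM in Gata4 KD and 164, 171 and 179 CPM in Tbx20 KD. All Gata4 KD libraries were below all others. Between Gata4 KD and Tbx20 KD the log2 difference was -0.50 (SE 0.09, adjusted p 0.0430), which did not pass in 5 of the 6 fits without 1 library, all but that without Gata4 KD replicate c. Against control Ddr1 had -0.43 (SE 0.11, adjusted p 0.195).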

How the data were processed

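The authors trimmed reads for quality, aligned them to GRCm38 with Bowtie2 in RSEM, with strand, and deposited expected counts per gene, here whole numbers without normalization; the submitters' notes name mm9 instead, and symbols and positions come from GENCODE M21 (GRCm38). Reads that match several genes are divided among them by RSEM; no member shared more than 1.18% of its 75 base windows with another gene. The 6 libraries of each comparison were fitted with edgeR 4.0.16 in R 4.3.3 (filterByExpr, TMM factors, quasi-likelihood F test, Benjamini-Hochberg over all genes, threshold 0.05), and the fit was tested on simulated data. CPM was TMM-scaled over all 9 libraries, with a prior count of 2 for log2 CPM, and divided by union exon length for levels per length. Total counts per library set the counting error, while standard errors also carry the spread between replicates. Members and lists were chosen with earlier results of these data known. Given per library were members that passed, members whose groups did not overlap with a log2 fold change of at least 0.5, and the highest member per length of each role; of the lists, up to 3 genes that passed. Lists were described by counts and medians, without a set test. Alternatives were DESeq2 1.42.0, library size alone, no filter, CPM above 1 in at least 2 libraries, limma-voom (limma 3.58.1), a fit of all 9 libraries, a block for the replicate letter, leaving out each library and, for levels, the longest transcript. Their use for the 5 lists was chosen after seeing the data. For 3 against 3 libraries the smallest exact permutation p is 0.1.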

Additional observations from a re-analysis of the deposited data

How the results depend on the processing

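The number of members called in Gata4 KD against control, 1 in the fit as reported, was 3 with DESeq2, 0 with the replicate block and 0 to 1 when 1 library was left out. Between the knockdowns it was 2, and 5 with DESeq2, 4 without the filter on low counts, 1 with the replicate block and 0 to 8 when 1 library was left out. In Tbx20 KD against control it was 0 under every alternative run. Library size alone, CPM above 1, limma-voom and all 9 libraries in one fit left these counts as they were. Over the 5 lists the count in Gata4 KD against control was 0, and 4 with DESeq2, 1 without the filter, 1 with all 9 libraries and 0 to 1 when 1 library was left out (1 without Gata4 KD replicate c or control replicate b). Between the knockdowns it was 1, and 5 with DESeq2, 4 without the filter, 2 with CPM above 1, 2 with limma-voom and 0 to 6 when 1 library was left out (6 without Gata4 KD replicate c, 0 otherwise). The cause was not tested. Fits without 1 library have fewer samples.

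The labels do not say whether the replicate letters pair the libraries. Deviations of same-letter libraries from their group means correlated between -0.17 and 0.26, with 1 letter of 3 highest with its own in each comparison. With 3 libraries per group these values cannot decide whether the letters are pairs. With the replicate block Npnt had an adjusted p of 0.0800 against control (4.74e-16 to 0.0910 over all alternatives), and between the knockdowns Smoc1 (0.0916) and Ddr1 (0.0547) were not called.

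The correlation of Nid1 and Nid2 turned to -0.0658 with library size alone and to -0.479 on deviations from group means, and that of Lamb1 and Lamc1 to 0.507 on those deviations. The medians over members and the summed CPM moved by less than the spread between replicates under each alternative. With the longest transcript 14 members reached 10 CPM per kilobase. For Col4a3, Col4a4 and Lama1, with 10 to 72 counts per library, counting error limits the fold changes.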
